A study of Mus musculus with 4 samples.

Results

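The cytokine mRNA decay factors described here are 8 genes: Zfp36, Zfp36l1, Zfp36l2, Zc3h12a, Zc3h12d, Rc3h1, Rc3h2 and Elavl1. They were chosen by name, as the RNA-binding proteins best known for shortening or lengthening the life of cytokine messages, and all 8 were found among the 50600 genes of the files by Ensembl identifier and symbol. RNA of primary T cells from C57BL/6NJ mice was sequenced in 4 libraries, numbered by the labels as biological replicates of 1 group. In the file headers every library carried a name that begins mmTh0 and the terms activated, bulk and 72 h, and the linked differentiation protocol was named for CD4+ T cells. The labels gave no treatment, genotype, sex or age and put no second group beside these cells, so the data answer how much of each decay factor mRNA the cells held and how far the libraries differed.

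AU-rich elements are stretches in the 3′ UTRs of many cytokine messages. Proteins of the Zfp36 family (tristetraprolin and its relatives) bind them with a pair of CCCH zinc fingers and bring in the deadenylase that removes the poly(A) tail, whereas Elavl1 (HuR) binds similar elements and is known to stabilise messages. Regnases, encoded by the Zc3h12 genes, and Roquins, encoded by the Rc3h genes, recognise short stem-loops instead: Regnase-1 cuts the message itself and Roquins recruit deadenylation and decapping. In T cells these proteins are known to limit cytokines, costimulatory receptors and NF-κB factors, and antigen receptor signalling inactivates Regnase-1 and Roquins through the protease Malt1.

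The coding sequences of the first or only CCCH zinc finger are shown because the families differ in the spacing of its zinc-holding residues. They were taken from the GENCODE mouse release 21 transcripts (GRCm38, mm10), run 5′ to 3′ on the coding strand, and capitals mark the codons of the 3 cysteines and the histidine that hold the zinc.
Zfp36 finger 1: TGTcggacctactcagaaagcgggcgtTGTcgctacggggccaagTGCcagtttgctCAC
Zfp36l1 finger 1: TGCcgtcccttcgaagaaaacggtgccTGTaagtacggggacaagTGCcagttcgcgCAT
Zfp36l2 finger 1: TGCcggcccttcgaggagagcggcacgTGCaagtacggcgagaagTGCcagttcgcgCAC
Zc3h12a finger: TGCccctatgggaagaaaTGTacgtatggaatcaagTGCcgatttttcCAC
Zc3h12d finger: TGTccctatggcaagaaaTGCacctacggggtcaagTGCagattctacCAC
Rc3h1 finger: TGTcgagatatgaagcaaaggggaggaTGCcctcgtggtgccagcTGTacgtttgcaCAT
Rc3h2 finger: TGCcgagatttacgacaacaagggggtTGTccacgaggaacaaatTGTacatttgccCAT
A search of the translated proteins for cysteines spaced by 8 and then 5 residues, with a histidine after 3 more, found 2 such fingers in each of Zfp36, Zfp36l1 and Zfp36l2 and 1 in each Roquin. Zc3h12a and Zc3h12d each had 1 finger of a shorter spacing, with 5 residues between the first cysteines, a search added after the first had been run. Elavl1, which binds RNA through RNA recognition motifs, matched neither spacing. Over the 58 aligned positions of the paired fingers, Zfp36l1 and Zfp36l2 were identical at 54 (93.1%), whereas Zfp36 was identical to Zfp36l1 at 39 (67.2%) and to Zfp36l2 at 40 (69.0%). Over whole proteins, identity was 43.2% between Zfp36l1 and Zfp36l2, 39.4% between Zc3h12a and Zc3h12d and 50.1% between Rc3h1 and Rc3h2.

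Sequence matches to the kinds of element that the decay factors are known to bind are shown next. They come from cytokine messages and from the messages of the decay factors themselves, were picked by sequence alone, and binding at them was not tested. Each is a window of a 3′ UTR in the same transcripts, 5′ to 3′, with capitals on every copy of the nonamer TTATTTATT, the preferred site of the Zfp36 family, and with positions counted from the first base after the stop codon.
Tnf, bases 436 to 465: taTTATTTATTATTTATTTATTATTTATTt
Csf2, bases 236 to 265: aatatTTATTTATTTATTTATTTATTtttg
Il2, bases 177 to 206: tttatctgaaaTTATTTATTatattgaatt
Zfp36, bases 578 to 607: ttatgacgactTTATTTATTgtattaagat
Zfp36l1, bases 1393 to 1422: aaactgttggaTTATTTATTttagaaattc
Zfp36l2, bases 810 to 839: aactatttaacTTATTTATTatcttgtgaa
Elavl1, bases 3789 to 3818: gaaaaTTATTTATTTATTTATTTATTttta
The run of overlapping nonamers in Elavl1 had the same form as that in Csf2, the gene of the cytokine GM-CSF. Stem-loops with a loop of pyrimidine, purine and pyrimidine, the form that Roquins and Regnase-1 are known to read, are shown with the loop in capitals for Tnf and Icos, classic Roquin messages, for Nfkbid and Tnfrsf4, and for the message of Regnase-1 itself.
Tnf, bases 545 to 561: tgttttcTGTgaaaacg
Icos, bases 336 to 356: gcattttttTACaaaaaatgc
Nfkbid, bases 214 to 230: tgatttcTGTgaaatcg
Tnfrsf4, bases 109 to 123: gtatgcTATgcatac
Zc3h12a, bases 377 to 393: taggcacCATgtgcctg

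Depth and identity of the libraries bear on every value that follows. The libraries held 49613182 to 94222415 counted fragments, and the smallest decay factor count was 2281, for Zfp36 in replicate 3, whose exact 95% Poisson interval of 2188 to 2377 covers counting error only. All 6 T cell markers were detected, summing to 5244 to 5547 TPM, with Cd4 at 1056 ± 62.8 TPM and Cd8a at 0.190 ± 0.0957 TPM (SD, n = 4). Neutrophil markers had 0 counts, the natural killer list summed to 0.0201 to 0.504 TPM, and 1 of 5 B cell, 2 of 6 macrophage and 1 of 2 CD8 markers reached the threshold (Cd79b, Adgre1, Cd68 and Cd8b1), with list sums of at most 5.08, 15.4 and 18.2 TPM. The labels give all 4 libraries the same donor identifier, yet Xist, transcribed from the inactive X chromosome, gave 332, 150.1, 0.877 and 0.392 TPM in replicates 1 to 4. Ddx3y, which is Y-linked, gave 0.0344, 0.0834, 49.0 and 45.8 TPM in the same order. Replicates 1 and 2 thus differed from replicates 3 and 4 in sex-linked RNA, and whether the spread between libraries is biological or technical cannot be told apart from the labels.

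All 8 decay factors were detected, meaning at 1 TPM or more in each of the 4 libraries, against 10754 of 21764 protein-coding genes (49.4%). TPM is the fragment count scaled by exonic length and by library. The decay factors' median of mean TPM was 77.3, beside 34.8 over the protein-coding genes that were detected, and their summed level ran from 841 to 1017 TPM per library. In order of mean level they ran Zfp36l1, Zc3h12d, Zc3h12a, Zfp36l2, Elavl1, Zfp36, Rc3h1 and Rc3h2. In bulk RNA, fewer expressing cells and less RNA per cell cannot be told apart.

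**Figure D1:**
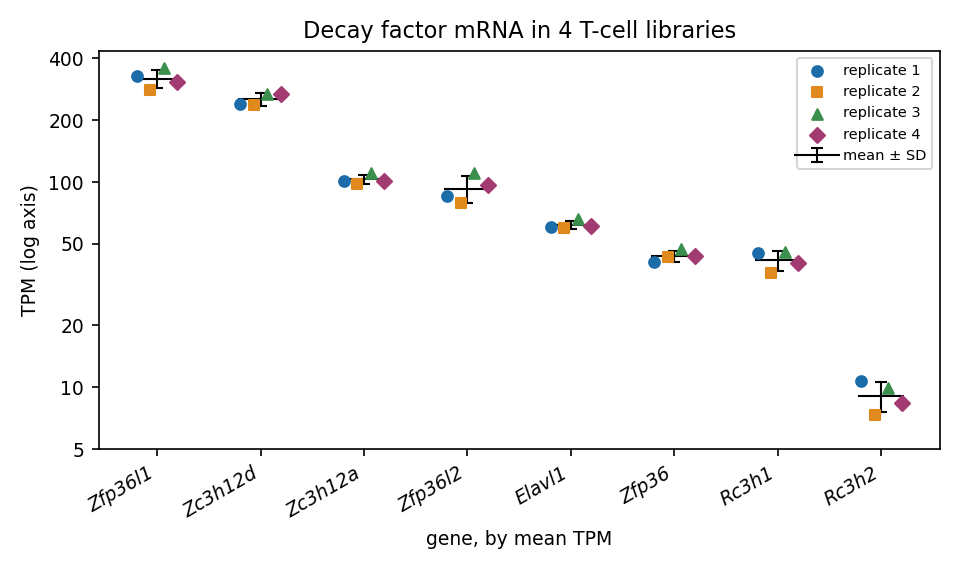
TPM of each decay factor (log axis) in the 4 libraries, with coloured points for replicates 1 to 4 and black bars for the mean ± SD. Zfp36l1 and Zc3h12d lie above the other genes in every library, Rc3h2 lies below them, and Zc3h12a overlaps Zfp36l2 as Zfp36 overlaps Rc3h1.

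Among the Zfp36 family, Zfp36l1 was the main message and Zfp36 itself, the founding member, had the lowest TPM of the 3 detected with the gene lengths used here. Zfp36 (mm10, chromosome 7, 28376784 to 28380253, minus strand) had 40.9, 43.0, 47.2 and 43.4 TPM in replicates 1 to 4, or 43.6 ± 2.62 TPM (SD, n = 4). Zfp36l1 (chromosome 12, 80107754 to 80113013, minus strand) had 327, 282, 359 and 307 TPM, or 319 ± 32.6 TPM, above 97.7% of protein-coding genes. Zfp36l2 (chromosome 17, 84183931 to 84187947, minus strand) had 85.5, 79.1, 110.1 and 96.6 TPM, or 92.8 ± 13.6 TPM. All 3 were highest in replicate 3, and their ranges did not overlap.

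Within each library, Zfp36 was below Zfp36l1 by a mean log2(TPM + 1) difference of -2.84 ± 0.12, so that Zfp36l1 held 7.31 ± 0.623 times the TPM of Zfp36. The difference of Zfp36 minus Zfp36l2 was -1.06 ± 0.15, and that of Zfp36l1 minus Zfp36l2 was 1.77 ± 0.12, a ratio of 3.46 ± 0.293. Each sign held in 4 of 4 libraries. The size of the gaps from Zfp36 depended on the length used. Its merged exons span 1.24 times its principal transcript, against 1.00 for Zfp36l1 and Zfp36l2. They form 1 block of 3470 bases that covers its whole annotated span, and the principal transcript of 2790 bases holds a 5′ UTR of 1056 bases. If the cells use a shorter Zfp36 transcript, both lengths understate its TPM, which was not tested. With principal transcript lengths the difference was -2.52 from Zfp36l1 and -0.75 from Zfp36l2. With 4 libraries the exact two-sided sign-flip test gives no p below 0.125, the value reached by each of these pairs, so none could pass 0.05. Of the family's summed 455 ± 46.3 TPM, Zfp36l1 made up 70.0 ± 1.45%, Zfp36l2 20.3 ± 1.33% and Zfp36 9.63 ± 0.733%. The rodent relative Zfp36l3, known from placenta, had 13 counts in all libraries together. Stretches of 100 to 141 bases in the exonic part of Zfp36 matched other annotated genes at 95% identity or more, so reads inside them may have been missed in counting.

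The Regnases were both abundant, and the less studied Regnase-4 gene stood above that of Regnase-1. Zc3h12a (chromosome 4, 125118423 to 125127840, minus strand), which encodes the endonuclease Regnase-1, had 101, 97.4, 110.1 and 101 TPM in replicates 1 to 4, or 103 ± 5.34 TPM. Zc3h12d (chromosome 10, 7832470 to 7870396, plus strand), which encodes Regnase-4, had 239, 237, 268 and 267 TPM, or 253 ± 17.2 TPM. Zc3h12a varied by 1.13-fold between its highest and lowest library, and Zc3h12d by the same ratio, with its lower values in replicates 1 and 2, the libraries rich in Xist. The part of that difference between libraries in the level of Zc3h12d was not tested. The difference of Zc3h12a minus Zc3h12d was -1.29 ± 0.07 (negative in 4 of 4 libraries, exact sign-flip p = 0.125), and Zc3h12d held 2.46 ± 0.119 times the TPM of Zc3h12a. Zc3h12c and Zc3h12b, the other relatives in the family, stood at 4.44 ± 1.01 and 1.06 ± 0.0783 TPM and made up 1.22% and 0.295% of the family's 361 ± 22.2 TPM.

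The Roquins were the least abundant pair, with Rc3h1 well above Rc3h2. Rc3h1 (chromosome 1, 160906418 to 160974978, plus strand), which encodes Roquin-1, had 45.1, 35.9, 45.5 and 40.1 TPM in replicates 1 to 4, or 41.6 ± 4.58 TPM. Rc3h2 (chromosome 2, 37370069 to 37422903, minus strand), which encodes the overlapping Roquin-2, had 10.7, 7.34, 9.92 and 8.42 TPM, or 9.09 ± 1.5 TPM, above 60.1% of protein-coding genes. Both had their lowest value in replicate 2, and their ranges did not overlap. The difference of Rc3h1 minus Rc3h2 was 2.08 ± 0.07 (positive in 4 of 4 libraries, exact sign-flip p = 0.125), a ratio of 4.61 ± 0.287, and Rc3h1 made up 82.1 ± 0.939% of the pair's 50.7 ± 6.04 TPM. The size of that gap depended on the length used: the merged exons of Rc3h2 span 19624 bases, 2.23 times its principal transcript of 8799 bases, and with principal transcript lengths the log2 difference was 1.03 and the share of Rc3h1 68.0 ± 1.39%.

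Elavl1 was the only member of its family above trace level. Elavl1 (chromosome 8, 4285382 to 4325413, minus strand) had 60.1, 59.8, 66.4 and 60.7 TPM in replicates 1 to 4, or 61.8 ± 3.09 TPM, with replicate 3 above the other libraries, which lay within 1 TPM of each other. Elavl2 had at most 2 and Elavl3 at most 13 counts in any library, and Elavl4 had 0, which allows up to 0.0400 TPM in the library with the highest such limit, at 3 counts. Zfp36 was below Elavl1 by a mean log2(TPM + 1) difference of -0.49 ± 0.04 (negative in 4 of 4 libraries, exact sign-flip p = 0.125). The size of that gap depended on the length used. Merged exons span 1.80 times the principal transcript in Elavl1 and 1.24 times in Zfp36, and with principal transcript lengths the difference was -1.02. The limit given above for the length of Zfp36 holds here too. By contrast, the 3 detected Zfp36 family messages summed to 7.36 ± 0.438 times Elavl1, or 4.17 ± 0.242 times with principal transcript lengths. Levels of mRNA do not give the amount or activity of these proteins.

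**Figure D2:**
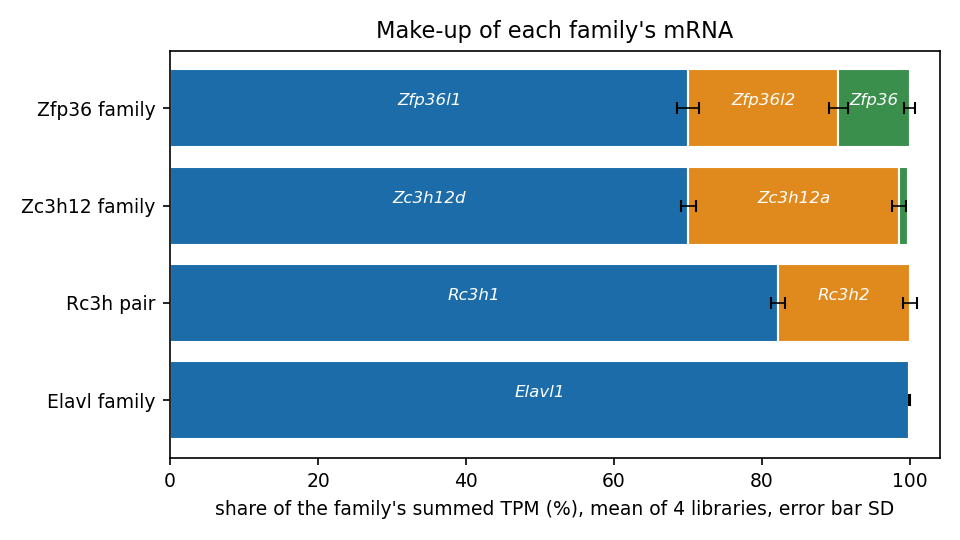
Share of each family's summed TPM (%) taken by its members, as the mean of 4 libraries with error bars for the SD. Zfp36l1 and Zc3h12d each take 70.0% of their family, Rc3h1 takes 82.1% of the Roquin pair and Elavl1 takes 99.9% of its family.

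Of the 7 neighbouring pairs in the order of levels, 5 were separate in every library. The difference of Zfp36l1 minus Zc3h12d was 0.33 ± 0.12, that of Zfp36l2 minus Elavl1 0.57 ± 0.15, and the other separate neighbours are the pairs already given. The difference of Zc3h12a minus Zfp36l2 was 0.15 ± 0.14 (positive in 3 of 4 libraries), with overlapping ranges. Zfp36 and Rc3h1 differed by 0.07 ± 0.16 (positive in 3 of 4 libraries), less than the spread between libraries. Both pairs were picked from the order of means in these same data, so no test is given for them. With principal transcript lengths, Elavl1 moved to the third place at 78.6 TPM, ahead of Zc3h12a at 75.7 TPM and Zfp36l2 at 65.5 TPM. Every paralog pair kept its direction under these lengths.

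The ratio of the highest to the lowest library ran from 1.11 for Elavl1 to 1.46 for Rc3h2. None of the 8 passed the edgeR test of between-library spread at an adjusted p under 0.05, where 94 of 13681 genes (0.687%) did. That test asks which genes differ between these libraries more than genes of like abundance do, so a gene not called may still differ. At an unadjusted p under 0.05 there were 2 of 8 decay factors, against 959 of all genes tested (7.01%). These were Rc3h2 (unadjusted p = 0.0357, edgeR adjusted p = 0.637) and Zfp36l2 (unadjusted p = 0.0429, edgeR adjusted p = 0.678). The coefficient of variation of TPM ran from 5.01% for Elavl1 and 5.21% for Zc3h12a to 14.6% for Zfp36l2 and 16.5% for Rc3h2, beside a median of 7.94% over detected protein-coding genes.

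As measured, replicate 3 was highest for each decay factor but Rc3h2, and replicate 2 was lowest for each but Zfp36. The libraries also differed by gene length: with detected genes in 5 classes by exonic length, the median log2 deviation of the 2211 longest was 0.07, -0.14, 0.13 and -0.05 in replicates 1 to 4, and that of the 2211 shortest stayed between -0.06 and 0.05. Removing a smooth length trend, an alternative chosen after seeing the data, reduced the ratio of highest to lowest library for both Roquins. The ratio was 1.19 for Rc3h2, against 1.46 as measured, and 1.13 for Rc3h1, against 1.27. With the trend removed, the highest library was replicate 1 for Rc3h1 and replicate 2 for Elavl1. For Zfp36l2 the ratio was 1.43 with the trend removed and 1.39 as measured, and its lower values stayed in replicates 1 and 2 (unadjusted p = 0.00505, edgeR adjusted p = 0.264). The part of the sex-linked split of the libraries in this was not tested.

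**Figure D3:**
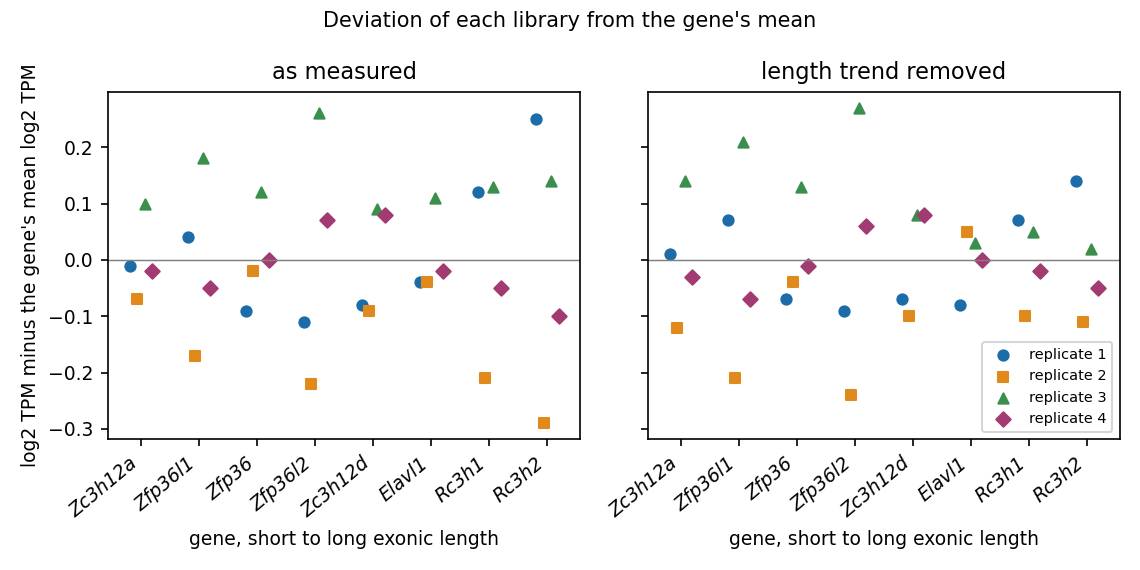
Deviation of each library's log2 TPM from the gene's mean for the 8 decay factors, ordered by exonic length, as measured (left) and with the length trend removed (right). The points of Rc3h1 and Rc3h2 draw together on the right, while those of Zfp36l1 and Zfp36l2 do not.

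The protein-coding genes with levels most like those of the highest and the lowest decay factor were found by the largest difference in log2(TPM + 1) over the 4 libraries. For Zfp36l1 the nearest was Top2a, a DNA topoisomerase of dividing cells, at 325 ± 31.7 TPM (largest difference 0.0353). For Rc3h2 the nearest were Zfp644 at 9.19 ± 1.42 TPM (0.0615) and Fbxo48 at 9.12 ± 1.37 TPM (0.0733).

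The machinery that the decay factors recruit was detected almost whole. Counts for these and the next lists stand beside 49.4% of all protein-coding genes detected and a median of 34.8 TPM over those. All 17 deadenylation genes were detected, with a median of 82.2 TPM, led by the adaptors Btg1 at 206 ± 9.74 TPM and Tob2 at 183 ± 17.9 TPM and the Ccr4-Not subunit Cnot9 at 149 ± 3.53 TPM. All 16 decapping and 5′ decay genes were detected, with a median of 63.5 TPM, led by the ring subunit Lsm4 at 355 ± 28.4 TPM, the helicase Ddx6 at 158 ± 14.3 TPM and the scaffold Edc4 at 115 ± 9.86 TPM. Of 15 exosome genes 14 were detected, led by Exosc3 at 178 ± 15.1 TPM, Exosc10 at 147 ± 8.33 TPM and Exosc2 at 116 ± 6.24 TPM. The exception, Exosc6, had 0 counts, and its annotated span (mm10, chromosome 8, 111056339 to 111057664) lies inside an exon of Aars on the same strand, where a shared fragment is counted for neither gene.

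Of 14 other proteins that bind such elements 12 were detected, led by Hnrnpab at 1414 ± 44.0 TPM, Ybx1 at 1265 ± 29.1 TPM and Pcbp1 at 889.7 ± 31.0 TPM, all above every decay factor; Igf2bp1 and Igf2bp2 were not. Of the 8 other relatives 3 were detected, namely Zc3h12c and the nuclease relatives Khnyn, at 82.5 ± 10.4 TPM, and N4bp1, at 19.0 ± 1.5 TPM. All 16 regulators were detected, with a median of 133 TPM: the 14-3-3 proteins Ywhae and Ywhab, which bind phosphorylated Zfp36, stood at 674 ± 16.9 and 307 ± 8.59 TPM, and Mapkapk2, the kinase that phosphorylates it, at 286 ± 13.1 TPM. Malt1, the protease that cleaves Regnase-1 and Roquins, had 115, 101, 109.7 and 94.0 TPM in replicates 1 to 4, a range that overlapped that of Zc3h12a. No tested gene of these lists passed the test of spread, where 71 of 11931 protein-coding genes did. Tested were all 17 deadenylation, 16 decapping and 16 regulator genes, 14 of 15 exosome genes, 13 of 14 other binding proteins and 4 of 8 relatives. Over all genes tested the share called was 0.687%, so lists of this size could hold no call without being unusual.

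**Figure D4:**
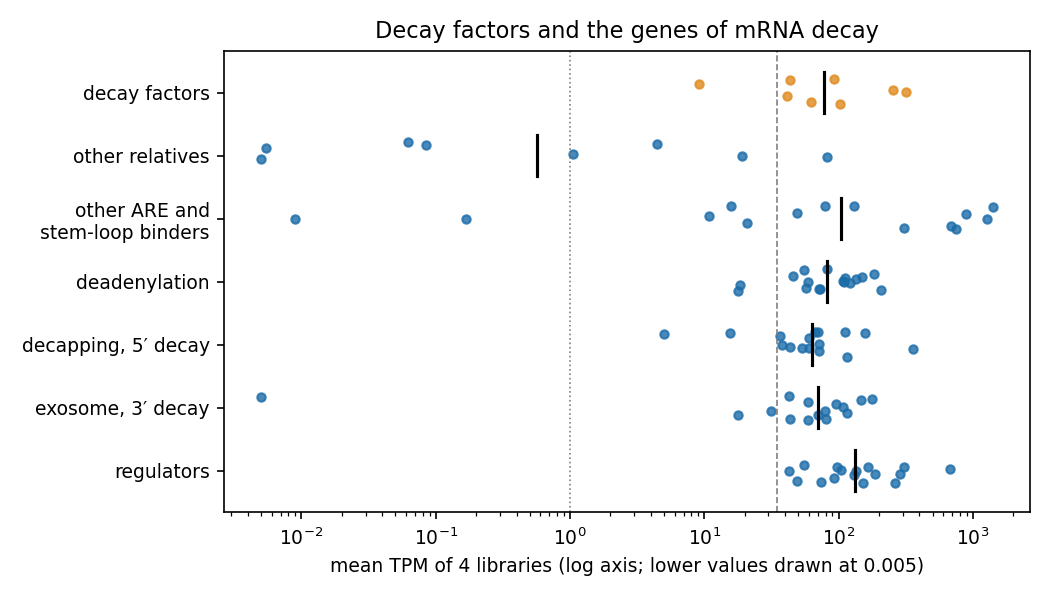
Mean TPM over 4 libraries (log axis) of the decay factors and of 6 lists of genes of mRNA decay, 1 point per gene, with black ticks for list medians. The dotted line is the detection threshold of 1 TPM and the dashed line the median of detected protein-coding genes, 34.8 TPM; the decay factors spread from 9.09 to 319 TPM.

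Messages that the decay factors are known to act on were counted against the same detection background of 49.4% of protein-coding genes. Of 11 stem-loop targets 10 were detected, with a median of 224 TPM: the costimulatory receptor gene Tnfrsf4 (OX40) at 2363 ± 169.9 TPM, the inhibitory receptor gene Ctla4 at 776 ± 41.5 TPM, Irf4 at 673 ± 59.7 TPM, Nfkbid at 224 ± 17.5 TPM, Rel at 216 ± 34.4 TPM, Icos at 205 ± 8.81 TPM and Nfkbiz at 46.9 ± 4.38 TPM, with Il2, Tnf and Zc3h12a itself. Il6, at 0.132 TPM, was the exception.

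Of 19 AU-rich targets 11 were detected, a share near that background, with a median of 15.0 TPM over the list. Il2, the T cell growth factor, had 1096, 1051, 969.9 and 942 TPM in replicates 1 to 4, Tnf had 288, 258, 246 and 199 TPM, and Csf2 had 206, 199, 165 and 184 TPM. All 3 were highest in replicate 1. Over the 18 detected targets of both lists that are not decay factors, the highest library was replicate 1 for 7, replicate 2 for 2, replicate 3 for 6 and replicate 4 for 3. Ccl3 stood at 545 ± 65.4 TPM, Myc at 491 ± 30.6 TPM, Il3 at 269.9 ± 43.0 TPM, Lif at 139.6 ± 8.79 TPM and Notch1 at 73.8 ± 10.7 TPM. Fos, Ier3 and Il17a were lower, at 18.2 ± 1.44, 15.0 ± 2.68 and 6.80 ± 1.26 TPM. Ifng, the cytokine of type 1 helper cells, had 2.95, 0.908, 0.444 and 0.639 TPM and so missed the threshold, as did Ptgs2, Cxcl1, Cxcl2, Il6, Il10, Il21 and Il22.

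The elements printed above were counted in the 3′ UTR of the principal transcript of each gene, on the transcript strand and with overlapping copies counted. At least 1 nonamer stood in 6 of 8 decay factor UTRs, in 11 of 18 of the AU-rich targets examined, which leave out Myc because its principal transcript ends at the stop codon, and in 1473 of 20152 UTRs of 50 bases or more (7.31%). Since long UTRs hold more words by length alone, each count was set beside UTRs of 0.8 to 1.2 times the same length, the gene's own included. Elavl1 held 8 copies in 4218 bases, a count reached or passed by 0.161% of UTRs of like length, beside 5 in Tnf (0.0876%) and 4 in Csf2 (0.112%). Zfp36, Zfp36l1, Zfp36l2, Rc3h1 and Rc3h2 held 1 copy each, where between 4.18% and 28.1% of UTRs of like length held at least 1. Zc3h12a and Zc3h12d held none.

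The core pentamer ATTTA, which lies within the nonamer, occurred at a median of 3.69 per kb in the decay factors, from 0.86 in Zc3h12d to 4.90 in Zfp36l1, beside a median of 10.19 in the AU-rich targets and 1.23 over all UTRs. Stem-loops with a loop of 3 bases, a stem of at least 6 pairs and at most 1 G-U pair were counted next. They stood in 4 of 8 decay factors, in 9 of 11 stem-loop targets and in 20.9% of all UTRs, a share not matched by length. Among UTRs of like length, a stem as long was present in 54.7% for Elavl1, in 26.2% for Rc3h2 and in 15.0% for Rc3h1. The stem of Zc3h12a had 7 pairs, matched by 5.69% of UTRs of like length, beside 9 pairs in Icos (2.20%), 7 in Nfkbid (3.68%) and 7 in Tnf (4.69%). In the other stem-loop targets that share was 2.54% for Nfkbiz, 3.76% for Tnfrsf4 and 6.65% for Ctla4. It was 17.2% for Irf4, 19.9% for Il6, 26.2% for Rel and 91.8% for Il2, so not every known target stood out for its length. Such matches describe the sequence and do not show that a protein binds there.

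**Figure D5:**
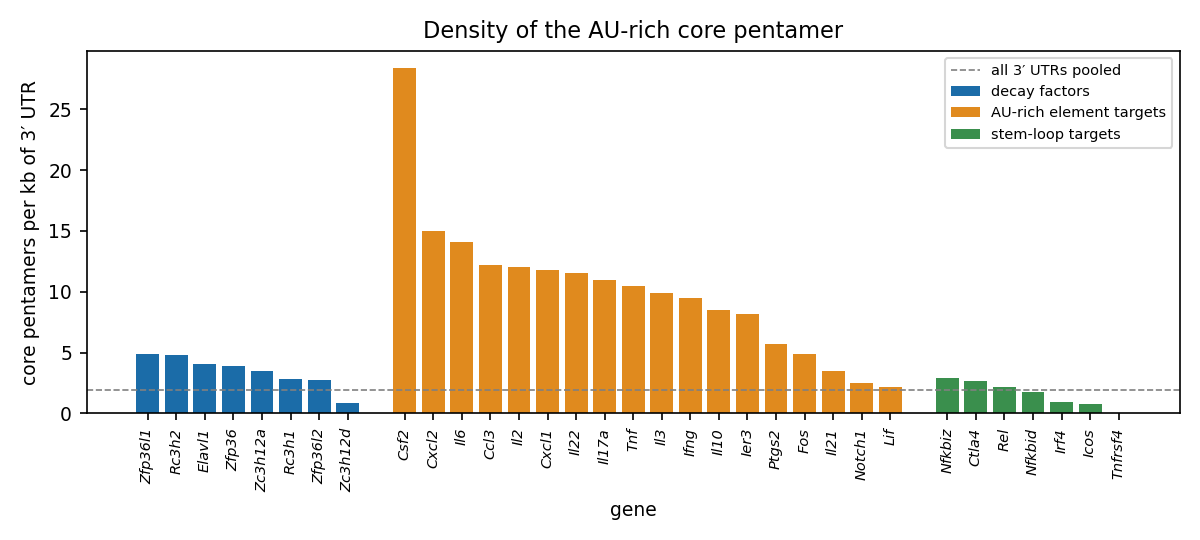
Copies of the core pentamer per kb of 3′ UTR in the decay factors, the AU-rich targets and the other stem-loop targets, with a dashed line at 1.94 per kb for all UTRs pooled. Of the decay factors only Zc3h12d, at 0.86 per kb, lies below the line, and Csf2, at 28.39 per kb, has the highest bar.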

How the data were processed

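The authors deposited unnormalized fragment counts for each gene, 1 file per library. Per the file headers, featureCounts 1.4.6-p4 counted pairs with both ends aligned, on the reverse strand, over the exons of GENCODE mouse release 13. The labels give mm10 and total RNA, while the linked library protocol is named for polyA+ RNA. No aligner version is given in the sources used here.

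Symbols and sequences came from GENCODE mouse release 21: 50376 of 50600 identifiers matched. TPM was computed here from counts and file lengths, and a gene at 1 TPM or more in each library was called detected. Spread was tested in edgeR 4.0.16 (R 4.3.3; TMM factors, filterByExpr, trended dispersion) by referring the deviance of an intercept-only fit to chi-square with 3 degrees of freedom, with Benjamini-Hochberg adjustment over all genes; the test was tested on simulated data. The 6 gene pairs were compared by sign flips (exact, two-sided, 16 patterns) with a pseudocount of 1, which understates differences of low genes. The rest used BLAST 2.17.0, Biopython 1.88 and Python 3.11.15 with scipy 1.17.1, numpy 2.4.6, matplotlib 3.10.9 and pandas 2.3.3.

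The genes named are the 8 members, the 3 highest and every undetected gene of each list, all targets, the 2 genes of most like level to the highest and lowest member (1 of them is not reported here), Xist and Ddx3y; Malt1, Cd4 and Cd8a were named after their values were seen, as were the detected markers of other cell types. The members and lists were chosen with earlier results of these data known. Alternatives were DESeq2 1.42.0 size factors, a common dispersion, a filter at a mean count of 50 or none, a pseudocount of 0.1, TPM over protein-coding genes or rescaled by TMM factors, thresholds of 0.5 and 5 TPM or 10 counts, and leaving out each replicate; the length trend and principal transcript lengths were added after seeing the data. P-values measure only the spread between these libraries, which may be technical.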

Additional observations from a re-analysis of the deposited data

Results flagged for a closer look

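Of 146 sets of 4 library values examined, 5 held 1 library whose gap to the nearest other one exceeded Dixon's 95% critical value, a criterion that chance meets in about 1 in 20 sets. Among the decay factors this was Elavl1, at 66.4 TPM in replicate 3 against 59.8 to 60.7 TPM in the other libraries. With the length trend removed, the log2 deviations of Elavl1 in replicates 1 to 4 were -0.08, 0.05, 0.03 and 0.00. Replicate 3 then no longer stood apart. Among the known target messages the gene flagged was Ctla4, at 838 TPM in replicate 4. The remaining 3 were macrophage markers at trace level: Lyz2 at 0.0546 TPM in replicate 3, Csf1r at 0.0589 TPM in replicate 4 and Itgam at 0.00716 TPM in replicate 4, each with 0 counts in the other libraries. They rest on 1, 8 and 1 counts. With 0 counts in every other library any count meets the criterion, so the chance rate given above does not apply to these markers.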

How the results depend on the processing

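No decay factor was called for spread under any alternative run, and every paralog pair kept its sign. The count of genes called, 94, was 617 with a common dispersion, 95 with DESeq2 size factors, 67 with no filter, 93 with a mean count of at least 50 and 107 with the length trend removed. Leaving out 1 replicate gave 38 to 87 genes, with 46 without replicate 1, 38 without replicate 2 and 46 without replicate 4; fewer libraries enter those fits. TPM over protein-coding genes only gave 108 for Zc3h12a and 65.3 for Elavl1. Principal transcript lengths, added after seeing the data, shifted the median detected protein-coding gene by -0.16 on the log2 scale and gave 225 TPM for Zfp36l1, 178 for Zc3h12d, 78.6 for Elavl1, 75.7 for Zc3h12a, 65.5 for Zfp36l2, 38.3 for Zfp36, 30.2 for Rc3h1 and 14.3 for Rc3h2. These values move by construction, since gene lengths set TPM. The other 109 main and 166 further alternatives were classed as unchanged. Among these, levels stayed within the spread between libraries, counts within 1.5-fold, and calls and the signs of pairs were kept. The size of a pair's difference could still move with principal transcript lengths, from 2.08 to 1.03 for Rc3h1 minus Rc3h2 and from -0.49 to -1.02 for Zfp36 minus Elavl1. In contrast, 4 counts of B cell and macrophage markers moved with the threshold. With principal transcript lengths the Zfp36 family sum over Elavl1 was 4.17 and the Rc3h1 share of its pair 68.0%.

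No comparison between groups was possible because the labels give 1 group, and the gene pairs were compared within each library. With 4 libraries no sign-flip p can pass 0.05. The 95% Poisson limits of the smallest decay factor count lay up to 4.19% from it, beside a coefficient of variation of 6.01% between libraries for that gene, Zfp36, and cover counting error only. The mRNA levels show neither decay rates nor protein.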
